A study of Mus musculus with 2 samples.

Results

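The insulin-like growth factor (IGF) system was followed through 8 of its genes, in 2 single-cell libraries of mouse skin. The genes were the ligand Igf1, the receptor Igf1r and the binding proteins Igfbp2, Igfbp3, Igfbp4, Igfbp5, Igfbp6 and Igfbp7. They were taken by symbol from the 55353 gene symbols of the count tables, and each symbol stood for 1 gene entry. They were chosen by their class levels in these libraries and the ratios between the libraries, so every level and ratio is a description without a test.

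Both libraries were made from dorsal skin, taken from mice of the strain C57BL/6 at 7 weeks of age. The SBM library came from skin of mice given Shi-Bi-Man, a natural product under study for psoriasis, together with imiquimod. The IMQ library came from skin of mice given imiquimod alone, an activator of Toll-like receptors whose use on mouse skin is a common model of psoriasis. Imiquimod was common to both libraries, and no untreated skin was analysed here. Each group held 1 library, the labels give no number of mice behind it, no dose and no route, and no difference has a replicate check.

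IGF1 is a small secreted growth factor that signals through the receptor tyrosine kinase IGF1R to promote growth and survival. Secreted binding proteins hold IGF1 in the tissue, prolong its life and either keep it from the receptor or deliver it there, and proteases that cut them set it free. In skin, IGF1 is known as a product of the dermis and the dermal papilla that acts on keratinocytes and the hair follicle.

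Among the members, Igfbp3 had the lowest and Igfbp4 the highest ratio between the libraries in dermal papilla-like cells, so the ends of their promoters are shown. Each sequence is the 100 bases before the RefSeq transcript start on GRCm38.p6, read 5′ to 3′ on the gene's strand, with a match to TATANA in capitals.
Igfbp3 (chr11:7213924-7214023, minus strand): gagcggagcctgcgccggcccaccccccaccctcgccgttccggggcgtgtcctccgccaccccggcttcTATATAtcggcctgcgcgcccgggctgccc
Igfbp4 (chr11:99041144-99041243, plus strand): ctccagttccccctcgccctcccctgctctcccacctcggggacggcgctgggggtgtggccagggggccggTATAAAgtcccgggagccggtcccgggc
The match began 30 bases before the start in Igfbp3 and 28 bases before it in Igfbp4. All 8 genes matched the RefSeq table, with 9 promoters among them, and these 2 were the ones whose window held the motif. Over both strands, 9.48% of 32851 mouse promoters of the same length held it. A match describes the letters of the window and is no evidence of binding.

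On GRCm38, with the GENCODE vM21 annotation, Igfbp2 (chromosome 1, 72824503 to 72852474, plus strand) and Igfbp5 (72857932 to 72874884, minus strand) lie tail to tail, 5457 bases apart. Igfbp3 (chromosome 11, 7206086 to 7213923, minus strand) lies 3539 bases from Igfbp1, which had 28 counts in the SBM library and 29 in the IMQ library. Igfbp4 lies far away on the same chromosome (99041244 to 99054392, plus strand). Igf1 (chromosome 10, 87858265 to 87937042, plus strand) overlaps the antisense gene Igf1os, with 18 counts in all. Igfbp7 (chromosome 5, 77349240 to 77408041, minus strand) overlaps Polr2b on the opposite strand, with 1976 counts in all, whereas Igfbp7 had 17602 in the SBM and 30112 in the IMQ library. Whether the counting used strand is not given in the sources used here. Igf1r (chromosome 7, 67952827 to 68233668, plus strand), Igfbp6 (chromosome 15, 102144362 to 102149511, plus strand) and the other 4 overlap no annotated gene.

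The SBM library held 20837259 counts in 8054 barcodes and the IMQ library 28920316 counts in 11316 barcodes, with medians of 1762 and 1617 counts per barcode. They shared 49 barcode sequences. After filtering, 7863 SBM and 11019 IMQ cells were clustered without the IGF genes and grouped into classes, each called -like since only RNA markers support the name. Fibroblast-like cells numbered 2266 in the SBM and 2054 in the IMQ library, dermal papilla-like cells 455 and 269, blood endothelial-like cells 247 and 504, macrophage and monocyte-like cells (the macrophage class) 760 and 1567, and keratinocyte-like cells 2640 and 2158. Classes with fewer than 50 cells in a library, Schwann and mast cell-like cells among them, are left out below. Levels are counts summed over a class and scaled to its total as CPM, with exact 95% Poisson intervals. Ratios are log2 of the SBM level over the IMQ level, with exact conditional binomial intervals. Both kinds of interval cover counting error only. T and NK cell-like cells (the T and NK class), not known as a main source of IGF1 or its binding proteins, were used as a guide to free RNA. Their levels set no upper limit for free RNA in other classes. The SBM and IMQ levels there were 26.5 and 10.4 CPM for Igf1, 26.5 and 17.2 for Igfbp2, 63.2 and 55.2 for Igfbp3, and 20.4 and 23.7 for Igfbp4. For Igfbp5 they were 44.9 and 30.8 CPM, for Igfbp6 28.6 and 51.6, and for Igfbp7 173 and 156.

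Over all cells, Igfbp2 and Igfbp5 were the members past 1.5-fold. Igfbp2 had 175 CPM in the SBM library and 65.1 CPM in the IMQ library, a log2 ratio of 1.43 (interval 1.35 to 1.51). Igfbp5 had 539 CPM in the SBM library and 255 CPM in the IMQ library, a log2 ratio of 1.08 (1.04 to 1.12). The other 6 log2 ratios lay between -0.30 for Igfbp7 and 0.52 for Igf1r. Library totals mix the level per cell with the share of each class, and fibroblast-like cells made up 28.8% of SBM and 18.6% of IMQ cells.

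The classes that held the counts of Igfbp3 and Igfbp2 differed between the libraries. For Igfbp3 the totals were close, at 171 CPM in the SBM and 159 CPM in the IMQ library. Keratinocyte-like cells held 75.9% of Igfbp3 counts in the SBM library and 25.0% in the IMQ library. Dermal papilla-like cells held 3.86% of them in the SBM library and 35.5% in the IMQ library. For Igfbp2, fibroblast-like cells held 82.2% of the SBM counts and 15.99% of the IMQ counts, where keratinocyte-like cells (38.4%) and sebaceous gland-like cells (36.6%) led. Igfbp5 and Igfbp6 came mostly from fibroblast-like cells in both libraries. This class held 86.1% of SBM and 78.1% of IMQ counts of Igfbp5, and 87.0% and 84.2% of those of Igfbp6.

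**Figure D1:**
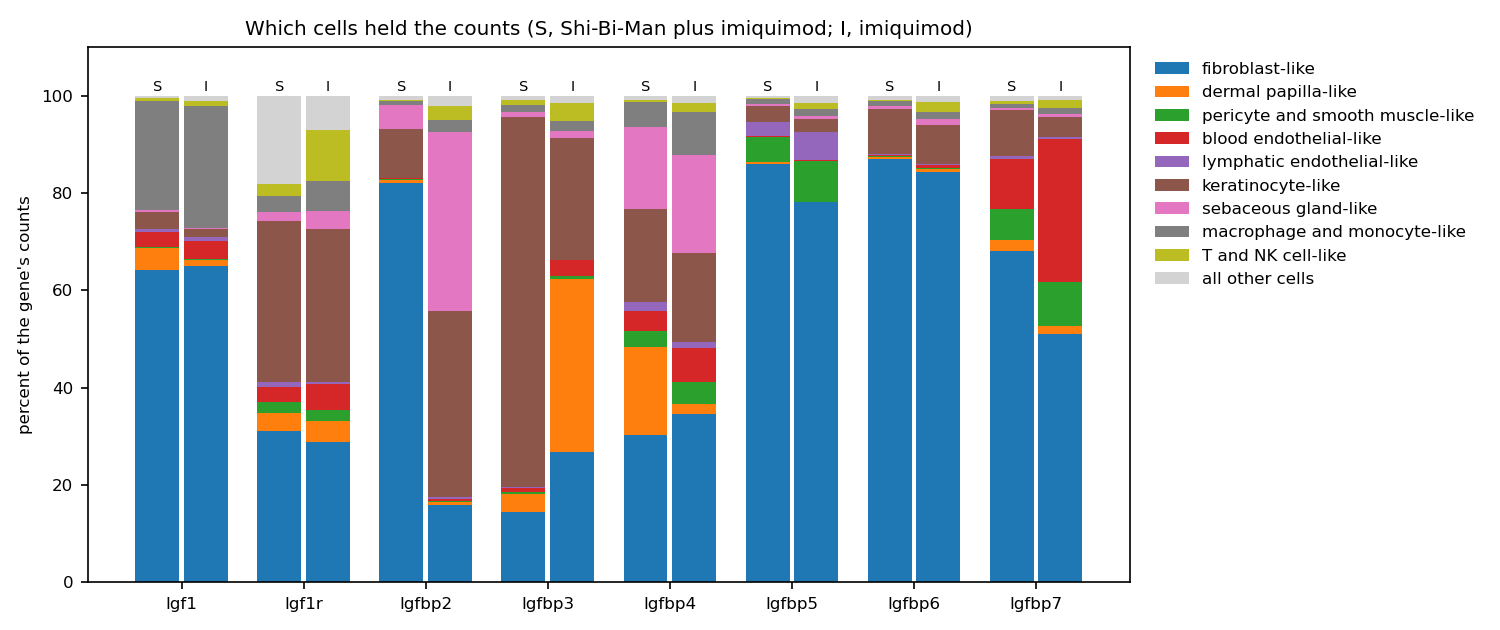
Percent of each gene's counts (vertical axis) found in each cell class (colours), for the SBM library (S) and the IMQ library (I). The orange dermal papilla-like part of Igfbp3 is 3.86% in S and 35.5% in I, and the blue fibroblast-like part of Igfbp2 is 82.2% in S and 15.99% in I.

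A member counted as measured in a class with at least 20 counts there over both libraries, and as higher or lower past 1.5-fold. In dermal papilla-like cells, 3 of 8 members (Igf1, Igfbp4 and Igfbp5) were higher in the SBM library, where 31.7% of all genes measured were. Another 4 (Igf1r, Igfbp3, Igfbp6 and Igfbp7) were lower, where 13.5% of genes were, and the members' median log2 ratio was -0.44 against 0.25 for all genes. In fibroblast-like cells 2 of 8, Igfbp2 and Igfbp5, were higher (9.48% of genes) and 3, Igfbp3, Igfbp4 and Igfbp6, were lower (10.5% of genes), with medians of -0.36 for the members and 0.02 for all genes. Among 7 members measured in blood endothelial-like cells, 2 (Igf1 and Igf1r) were higher (13.7% of genes) and 2 (Igfbp3 and Igfbp7) lower (18.8%). Keratinocyte-like cells had 3 of 8 higher (14.4% of genes), namely Igf1, Igfbp3 and Igfbp5, and Igfbp2 lower (12.1%). The members were chosen by these same ratios, so nothing is read from their counts.

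**Figure D2:**
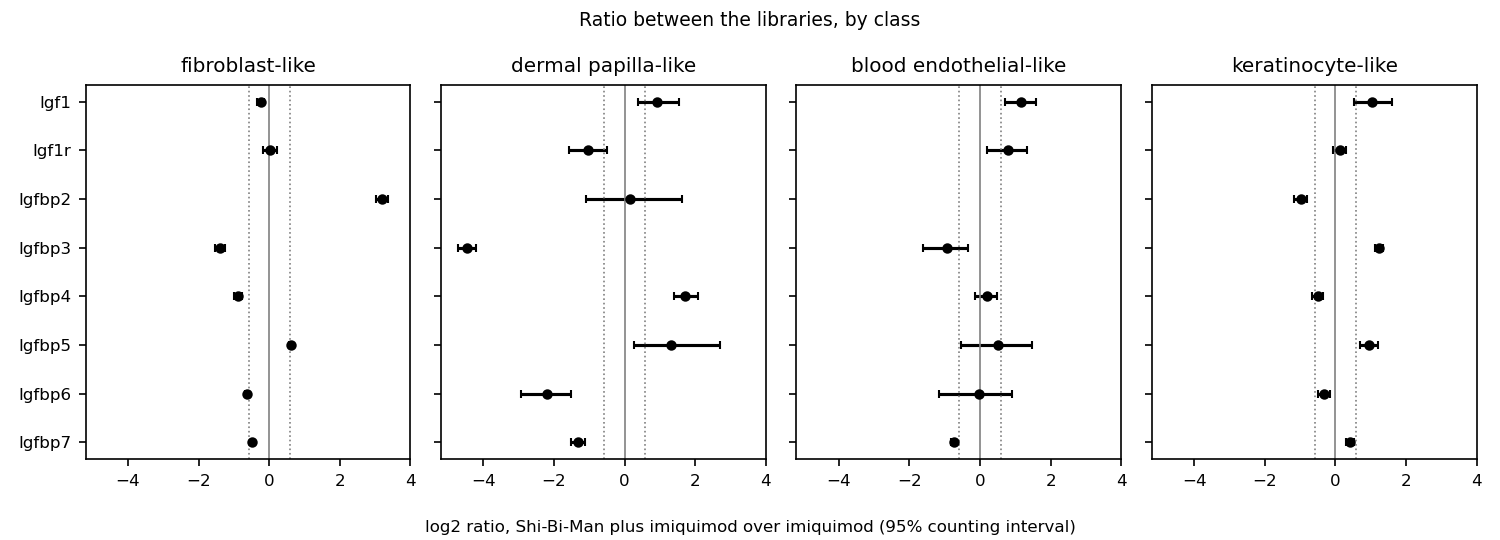
Log2 ratio of the SBM over the IMQ level (horizontal axis) of each member in 4 classes, with 95% counting intervals; dotted lines mark 1.5-fold, and Igfbp2 is absent from blood endothelial-like cells because it had fewer than 20 counts. Igfbp3 lies at -4.46 in dermal papilla-like and 1.23 in keratinocyte-like cells, and Igfbp2 at 3.18 in fibroblast-like cells.

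Igf1, the ligand, was found in the macrophage class, fibroblast-like cells, dermal papilla-like cells and endothelial-like cells. In the SBM library its order was 557 CPM in the macrophage class, 336 in fibroblast-like, 199.6 in blood endothelial-like, 175 in dermal papilla-like and 89.9 in lymphatic endothelial-like cells. Of these neighbours, the intervals of blood endothelial-like and dermal papilla-like cells overlapped. In the IMQ library fibroblast-like cells came first with 397 CPM, then the macrophage class with 264. Dermal papilla-like, blood endothelial-like and lymphatic endothelial-like cells followed with 91.3, 90.0 and 74.8 CPM, and their intervals overlapped. Every other class was at or under 26.5 CPM in the SBM library and 15.3 CPM in the IMQ library, near the level in the T and NK class.

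The macrophage class had a higher Igf1 level in the SBM library. It had 602 SBM counts and 713 IMQ counts, a log2 ratio of 1.08 (0.92 to 1.24), whereas fibroblast-like cells had a log2 ratio of -0.24 (-0.34 to -0.15). Both of its clusters had a higher level in the SBM library. The one led by Sirpb1c, Lyz1 and Mpeg1 had 323 CPM in the SBM and 93.2 CPM in the IMQ library (log2 ratio 1.79). The one led by Cd209f, Cd209b and Cd209g, lectin genes of tissue-resident macrophages, had the higher level of the 2 clusters in both libraries, 917 and 662 CPM (0.47). After each cell was thinned to 500 counts, Igf1 was seen in 21.2% of SBM and 10.9% of IMQ cells of this class, against 1.38% and 0.674% of the T and NK class. Without thinning the shares were 35.1% and 23.9%, against 1.96% and 1.07%, at median depths of 1235.5 and 1416 counts, against 780 and 1008. Fibroblast markers moved with this result. All 14 were detected in the class in both libraries, with summed levels of 3782 CPM in the SBM and 2028 CPM in the IMQ library, against 98984 and 69661 CPM in fibroblast-like cells. Their part in the Igf1 ratio was not tested.

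Within the fibroblast-like class, Igf1 varied more between clusters than between libraries. The Sfrp4, Thbs4 and Myoc cluster had 725 CPM in the SBM and 626 CPM in the IMQ library. The Coch, Kera and Fmod cluster, named like the others by its leading genes, had 418 and 297 CPM, and the Cyp2f2, Gm12407 and Cpz cluster 248 and 213 CPM. The Sema3a, Magi2 and Meg3 cluster was lowest in both, with 115 and 139 CPM. The Sfrp4, Thbs4 and Myoc cluster had 436 cells in the SBM and 831 cells in the IMQ library, where it was the largest. Weighted by the IMQ mix of clusters, the class ratio of Igf1 turned to 0.25. Dermal papilla-like cells had 121 and 34 counts, 175 and 91.3 CPM (0.92, 0.38 to 1.53).

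Endothelial Igf1 was found mostly in venular cells. At a finer clustering resolution, added after seeing the data, cells led by Selp, Sele and Ackr1, adhesion and chemokine-binding genes of venules, had 289 CPM of Igf1 in the SBM and 187 CPM in the IMQ library. The capillary and arterial cells led by Gkn3, Gpihbp1 and Sox17 had 21.9 and 12.0 CPM, from 3 and 8 counts. The venular log2 ratio was 0.63 (0.18 to 1.06), below the 1.15 of the whole class (0.72 to 1.58). Venular cells were 167 of the SBM and 245 of the IMQ cells, and capillary and arterial cells 79 and 259, so venular cells were the larger subset in the SBM library and the smaller one in the IMQ library. Summed fibroblast markers in blood endothelial-like cells were 2091 CPM in the SBM and 1299 CPM in the IMQ library, and their part in the Igf1 ratio was not tested.

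Igf1r, the receptor, was spread over many classes, whose intervals overlapped for the most part. Its highest level in the SBM library was 387 CPM in inner root sheath and hair matrix-like cells, which form the growing hair and the sheath around it. After thinning, 26.3% of these 175 cells had an Igf1r count (52.6% without thinning), against 3.34% of the T and NK class (4.32% without thinning), at median depths of 1945 and 780 counts. The 71 IMQ cells of that cluster had 289.9 CPM but no count of Krt71, Krt25, Krt27, Krt28 or Krt73, the root sheath keratins, so the name does not hold for them and no ratio is given. Next in the SBM library came pericyte and smooth muscle-like cells with 142 CPM, blood endothelial-like with 107, melanocyte-like with 105, fibroblast-like with 91.0 and dermal papilla-like with 82.4 CPM, all with intervals that overlapped their neighbour's. In the IMQ library dermal papilla-like cells had 169 CPM, then melanocyte-like 96.8, fibroblast-like 89.0 and pericyte and smooth muscle-like cells 86.8 CPM, again overlapping from one to the next.

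Igf1r in fibroblast-like cells was 91.0 CPM in the SBM and 89.0 CPM in the IMQ library, a log2 ratio of 0.03 (-0.16 to 0.23). Its level varied between their clusters. The Sema3a, Magi2 and Meg3 cluster had 210.5 CPM in the SBM and 222 CPM in the IMQ library (-0.08). The Sfrp4, Thbs4 and Myoc cluster had 49.2 and 50.4 CPM (-0.02). The Coch, Kera and Fmod cluster was lower with Shi-Bi-Man, with 65.2 and 103.9 CPM (-0.67, -1.17 to -0.18). The Cyp2f2, Gm12407 and Cpz cluster had 67.6 and 86.9 CPM (-0.36, short of 1.5-fold). At the IMQ mix of clusters the class ratio was -0.27. Blood endothelial-like cells had 107 and 62.5 CPM (0.78, interval 0.21 to 1.33), and dermal papilla-like cells 82.4 and 169 CPM (-1.04, -1.58 to -0.50). The keratinocyte cluster led by Serpinb10, Tmprss11f and Tango6 had the highest level among keratinocyte-like cells, with 145 CPM in the SBM and 263 CPM in the IMQ library (-0.87). The T and NK class, whose cells can carry the receptor themselves, had 73.4 and 49.3 CPM of Igf1r.

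Igfbp3 in dermal papilla-like cells showed the largest ratio of any member in the classes compared. IGFBP3 is the main carrier of IGF1 in blood and in tissues usually limits its access to the receptor. It had 135 counts in 455 SBM cells and 1601 counts in 269 IMQ cells. That is 195 CPM (164 to 231) in the SBM library and 4299 CPM (4091 to 4515) in the IMQ library, 21.96-fold lower with Shi-Bi-Man (log2 ratio -4.46, -4.73 to -4.21). No single cell held over 7.41% of the SBM counts or 2.12% of the IMQ counts. After thinning, 9.45% of SBM and 77.7% of IMQ dermal papilla-like cells had a count, against 1.96% and 2.14% of the T and NK class. Without thinning the shares were 17.1% and 87.4%, against 3.93% and 3.53%. Median depths were 1141 SBM and 728 IMQ counts, so the shallower cells had the larger share.

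The markers of the papilla-like class itself differed between the libraries. Of 15 dermal papilla markers 14 were detected in both libraries, with summed levels of 7823 CPM in the SBM and 6565 CPM in the IMQ library, and Sox2 was at 0 in both. Corin had 377 CPM in the SBM and 24.2 CPM in the IMQ library, Sox18 1520.1 and 249.7, and Rspo3 814 and 142. The Wnt inhibitor genes Wif1 and Notum ran the other way, with 501 and 1077 CPM for Wif1 and 212 and 693 CPM for Notum. The summed fibroblast markers were 7377 CPM in the SBM and 3458 CPM in the IMQ library, and those of pericytes and smooth muscle 204 and 524 CPM. The part of these marker differences in the ratios of Igfbp3 and the other members was not tested. The highest Igfbp3 level in any other class or compared cluster of the IMQ library was 981 CPM, in the Mt4, Calm5 and Skint7 keratinocyte cluster.

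Outside the papilla, Igfbp3 was lower in fibroblast-like and higher in keratinocyte-like cells of the SBM library. Fibroblast-like cells had 98.6 CPM in the SBM and 259 CPM in the IMQ library (-1.39, -1.55 to -1.24), from 503 and 1211 counts. The Sfrp4, Thbs4 and Myoc cluster held most of these counts, with 350.0 CPM in the SBM and 481 CPM in the IMQ library. The Cyp2f2, Gm12407 and Cpz cluster had 25.9 and 107.7 CPM (-2.05), the Sema3a, Magi2 and Meg3 cluster 70.5 and 123.6 CPM (-0.81), and the Coch, Kera and Fmod cluster 68.6 and 50.2 CPM (0.45, -0.14 to 1.05). At the IMQ mix of clusters the class ratio was -0.52, short of 1.5-fold, and the part of cluster sizes in it was not tested. Keratinocyte-like cells had 273 CPM in the SBM and 116 CPM in the IMQ library (1.23, 1.13 to 1.34), the highest level of any class in the SBM library.

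Among keratinocyte-like cells the cluster sizes also differed between the libraries. Spinous cells led by Mt4, Calm5 and Skint7, in the suprabasal epidermis, numbered 1139 in the SBM and 64 in the IMQ library, and granular cells led by Hrnr 206 and 0. Within the spinous cells Igfbp3 was 376 CPM in the SBM and 981 CPM in the IMQ library (-1.39, -1.59 to -1.18), the opposite of the class. The Serpinb10, Tmprss11f and Tango6 cluster had 711.5 and 461 CPM (0.62). Follicle stem and outer root sheath cells led by Lhx2 had 47.8 and 17.8 CPM, under the levels of the T and NK class. Cells with the stress keratin Krt6b were 24 in the SBM and 760 in the IMQ library, and had 189 and 165 CPM. At the IMQ mix of clusters the ratio of the class was 0.20. The other 2 members higher in keratinocyte-like cells had class levels under those of the T and NK class, Igf1 with 9.57 and 4.62 CPM and Igfbp5 with 38.4 and 19.8 CPM. Among their clusters, the one led by Serpinb10, Tmprss11f and Tango6 had more Igfbp5, 83.6 and 58.1 CPM. In it, 1 cell held 47.1% of the 17 IMQ counts. Summed fibroblast markers in keratinocyte-like cells were 2205 CPM in the SBM and 1013 CPM in the IMQ library.

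**Figure D3:**
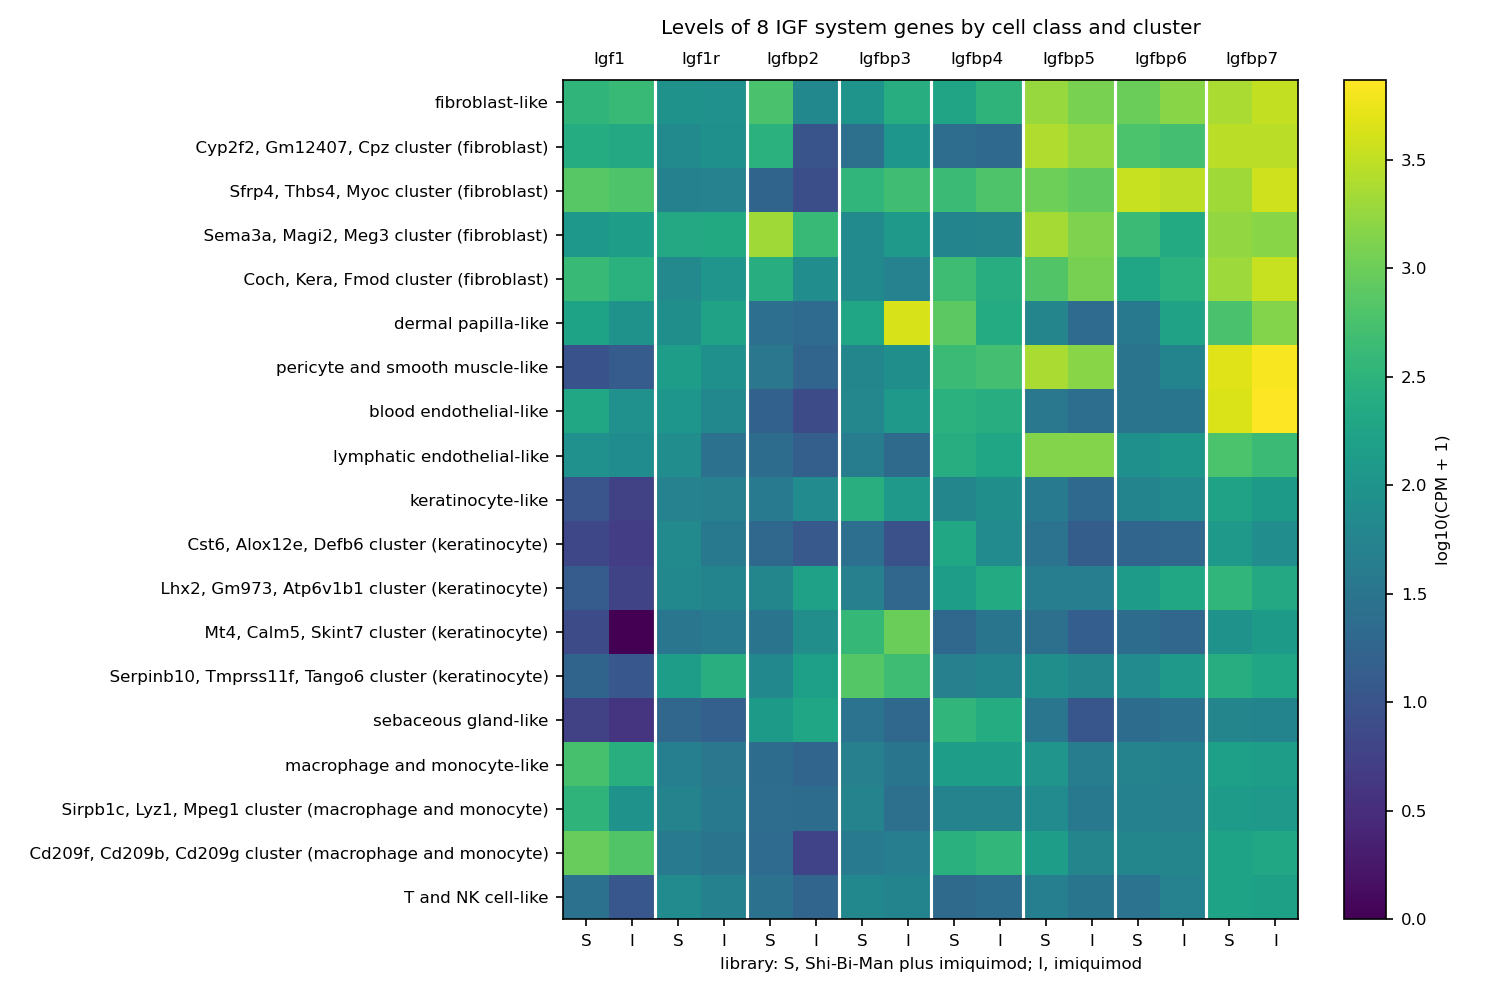
Levels of the 8 genes as log10(CPM + 1) (colour) by cell class and cluster (rows), with the SBM (S) and IMQ (I) library side by side under each gene. Under Igfbp3 the dermal papilla-like row holds 195 CPM in S and 4299 CPM in I, and the Mt4, Calm5 and Skint7 row 376 and 981 CPM.

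Igfbp4 went the other way in dermal papilla-like cells. IGFBP4 mostly inhibits IGF action until the protease PAPPA cuts it. Its level was 783 CPM (719 to 852) in the SBM and 236 CPM (189.5 to 291) in the IMQ library, from 542 and 88 counts, a log2 ratio of 1.72 (1.40 to 2.07). After thinning, 26.8% of SBM and 9.29% of IMQ dermal papilla-like cells had a count, and 48.8% and 18.2% without thinning. In the T and NK class the thinned shares were 0.982% and 0.793%, and 1.38% and 2.14% without thinning. Sebaceous gland-like cells, at 14.8% and 9.93% after thinning, held Igfbp4 themselves and gave no background for it. In the SBM library dermal papilla-like cells had the highest Igfbp4 level, followed by pericyte and smooth muscle-like cells with 435.5 CPM, sebaceous gland-like with 355 and blood endothelial-like with 289.7 CPM. In the IMQ library pericyte and smooth muscle-like cells led with 503.6 CPM, then fibroblast-like cells with 326, and dermal papilla-like cells overlapped blood endothelial-like cells (255 CPM) and sebaceous gland-like cells (243 CPM).

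Igfbp4 in fibroblast-like cells was 177 CPM in the SBM and 326 CPM in the IMQ library (-0.88, -0.998 to -0.758). The Sfrp4, Thbs4 and Myoc cluster held 389 of 904 SBM counts and 1245 of 1522 IMQ counts, with 435 and 621 CPM (-0.51). The Coch, Kera and Fmod cluster held 409 and 222 of them and was higher with Shi-Bi-Man, with 459.8 CPM in the SBM and 259 CPM in the IMQ library (0.83, 0.59 to 1.07). The other 2 clusters lay at or under 56.9 CPM in both libraries. At the IMQ mix of clusters the class ratio was -0.13. The macrophage class had 142 CPM in the SBM and 145 CPM in the IMQ library (-0.02, -0.31 to 0.25), and its Cd209f, Cd209b and Cd209g cluster 279.8 and 359 CPM.

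Igfbp2 had the largest ratio of the 8 genes in fibroblast-like cells. IGFBP2 carries an integrin-binding motif and can act on cells apart from IGF. The class had 2941 SBM counts and 296 IMQ counts, 577 CPM (556 to 598) and 63.4 CPM (56.3 to 71.0), 9.09-fold higher with Shi-Bi-Man (log2 ratio 3.18, 3.01 to 3.36). The Sema3a, Magi2 and Meg3 cluster had the highest level in both libraries, 2086 and 396 CPM (2.39, 2.19 to 2.61). Outside it the Cyp2f2, Gm12407 and Cpz cluster had 292 and 9.23 CPM (4.92, 4.17 to 5.94), from 686 and 12 counts. The Coch, Kera and Fmod cluster had 256 and 78.2 CPM (1.70), where 1 cell held 22.8% of the SBM counts. The Sfrp4, Thbs4 and Myoc cluster had 16.8 and 7.48 CPM, under the levels of the T and NK class. The 3 clusters above the T and NK class in the SBM library each had a lower level in the IMQ library. At the IMQ mix of clusters the class ratio was 2.45.

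The share of fibroblast-like cells with an Igfbp2 count was 10.5% in the SBM and 1.996% in the IMQ library after thinning, against 1.18% and 0.833% of the T and NK class. Without thinning it was 18.4% and 4.72%, against 2.16% and 1.67%, at median depths of 2080 and 1962 counts. In the Sema3a, Magi2 and Meg3 cluster it was 29.2% and 9.17% after thinning. The IMQ share of the class was low but above that of the T and NK class.

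Of the epithelial classes, keratinocyte-like cells had a lower Igfbp2 level with Shi-Bi-Man, 36.8 CPM in the SBM and 73.1 CPM in the IMQ library (-0.99, -1.18 to -0.80). Their follicle stem and outer root sheath cluster, led by Lhx2, had 58.3 and 164 CPM (-1.49, -1.80 to -1.19), and the spinous cluster 29.5 and 79.9 CPM. Sebaceous gland-like cells, with 125 and 187 CPM (-0.58, -0.83 to -0.34, short of 1.5-fold), had the highest level of any class in the IMQ library.

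**Figure D4:**
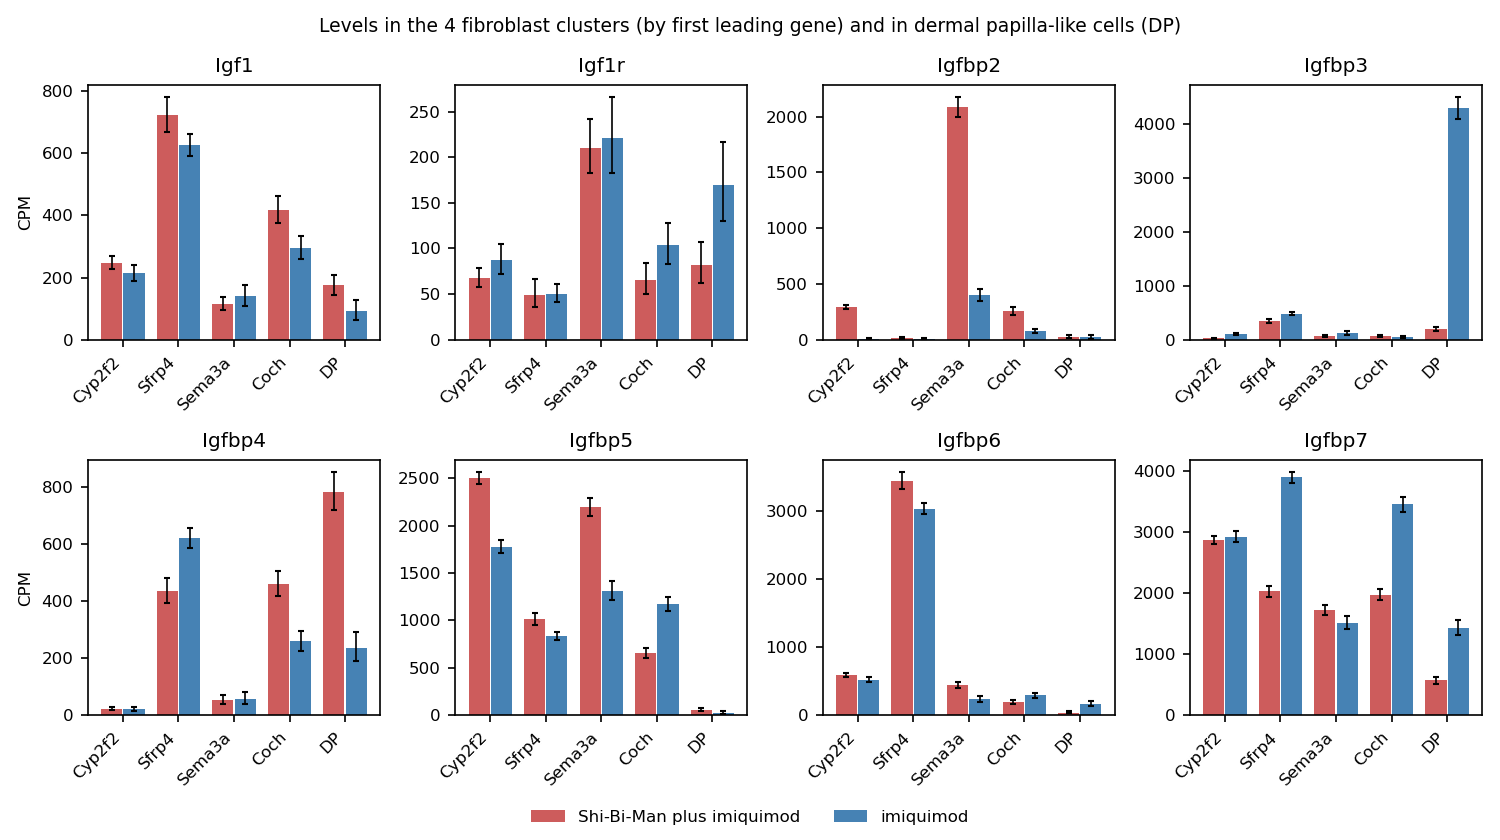
Level in CPM (vertical axis, each panel with its own scale) of the 8 genes in the 4 fibroblast clusters, named by their first leading gene, and in dermal papilla-like cells (DP); bars are sums over all cells of 1 library and error bars 95% counting intervals. Igfbp2 peaks in the Sema3a cluster (2086 CPM in the SBM and 396 CPM in the IMQ library), Igfbp6 in the Sfrp4 cluster (3441 and 3029 CPM) and Igfbp3 in IMQ DP cells (4299 CPM).

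Igfbp5, whose product binds extracellular matrix, was found in pericyte and smooth muscle-like, fibroblast-like and lymphatic endothelial-like cells. Pericyte and smooth muscle-like cells had 2374 CPM in the SBM and 1491 CPM in the IMQ library (0.67, 0.50 to 0.84). Fibroblast-like cells had 1860.2 and 1210.4 CPM (0.62, 0.57 to 0.67), and lymphatic endothelial-like cells 1412 and 1404 CPM (0.01, -0.21 to 0.22). All other classes were at or under 140.4 CPM in the SBM and 71.3 CPM in the IMQ library. Of these, the macrophage class had 101.8 and 41.5 CPM (1.30, 0.90 to 1.69), from 110 and 112 counts. Summed fibroblast markers in the macrophage class were 3782 CPM in the SBM and 2028 CPM in the IMQ library. Their part in its Igfbp5 ratio was not tested. The T and NK class had 44.9 and 30.8 CPM. Among fibroblast clusters the directions split. The Sema3a, Magi2 and Meg3 cluster had 2196 and 1308 CPM (0.75, 0.62 to 0.87), the Cyp2f2, Gm12407 and Cpz cluster 2500.3 and 1779 CPM (0.49), and the Sfrp4, Thbs4 and Myoc cluster 1011 and 833 CPM (0.28). The Coch, Kera and Fmod cluster had 658 CPM in the SBM and 1173 CPM in the IMQ library (-0.83, -0.98 to -0.69). At the IMQ mix of clusters the class ratio was 0.25, short of 1.5-fold. Dermal papilla-like cells had 39 and 8 counts, at 56.4 and 21.5 CPM (1.32, 0.27 to 2.70), values near those of the T and NK class.

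Igfbp6, whose product prefers IGF2 to IGF1, was the member with the largest share of its counts in fibroblast-like cells, in both libraries. The class had 988 CPM in the SBM and 1522 CPM in the IMQ library (-0.62, -0.68 to -0.57), and its nearest neighbours were lymphatic endothelial-like cells with 85.4 CPM in the SBM library and dermal papilla-like cells with 166 CPM in the IMQ library. The Sfrp4, Thbs4 and Myoc cluster had 3441 CPM in the SBM and 3029 CPM in the IMQ library (0.18, 0.12 to 0.25), from 3077 and 6073 counts. The Cyp2f2, Gm12407 and Cpz cluster had 582 and 518 CPM (0.17), the Sema3a, Magi2 and Meg3 cluster 434.5 and 229.5 CPM (0.92), and the Coch, Kera and Fmod cluster 195.6 and 289.5 CPM (-0.56). The lower class level went with fewer cells of the Sfrp4 cluster, and at the IMQ mix of clusters the ratio turned to 0.17. Dermal papilla-like cells had 36.1 CPM in the SBM and 166 CPM in the IMQ library (-2.19, -2.94 to -1.51), from 25 and 62 counts, where the T and NK class had 28.6 and 51.6 CPM.

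Igfbp7, a low-affinity relative of the binding proteins known from blood vessels, had its highest levels in the vessel wall. Pericyte and smooth muscle-like cells had 4728 CPM in the SBM and 6792 CPM in the IMQ library (-0.52, -0.62 to -0.42), and blood endothelial-like cells 4377 and 7329.5 CPM (-0.74, -0.82 to -0.67). The intervals of these 2 classes overlapped in the SBM library and not in the IMQ library. After thinning, Igfbp7 was seen in 70.4% of SBM and 74.4% of IMQ blood endothelial-like cells, and in 84.6% and 85.5% without thinning, at median depths of 1244 and 1853 counts. In the T and NK class the thinned shares were 8.45% and 6.90%. Fibroblast-like cells followed with 2350.3 and 3285 CPM (-0.48). Next in the SBM library came lymphatic endothelial-like cells with 580.0 CPM and dermal papilla-like cells with 569 CPM, with overlapping intervals. In the IMQ library dermal papilla-like cells had 1428 CPM, above lymphatic endothelial-like cells with 428 CPM. The log2 ratio of dermal papilla-like cells was -1.33 (-1.52 to -1.14). Endothelial Igfbp7 was higher in capillary and arterial cells (6405 and 9799 CPM) than in venular cells (3364 and 4247 CPM). The class held fewer capillary and arterial cells in the SBM library, and within these subsets the log2 ratios were -0.61 (-0.72 to -0.51) and -0.34 (-0.45 to -0.22), smaller than in the whole class. Igfbp3 also sat in capillary and arterial cells, with 139 CPM in the SBM and 177 CPM in the IMQ library, against 21.9 and 43.1 CPM in venular cells. Its log2 ratio was -0.32 (-1.13 to 0.36) in capillary and arterial cells, from 19 and 118 counts. In venular cells it was -0.89 (-2.56 to 0.36), from 6 and 23 counts. In fibroblast clusters Igfbp7 was lower in the Sfrp4, Thbs4 and Myoc cluster (2027 and 3896 CPM, -0.94) and in the Coch, Kera and Fmod cluster (1971 and 3457 CPM, -0.81). The Sema3a, Magi2 and Meg3 cluster had 1727 and 1508 CPM (0.19, 0.07 to 0.32). The Cyp2f2, Gm12407 and Cpz cluster had 2872 and 2924 CPM (-0.03, -0.08 to 0.03).

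The other genes of the pathway were taken from a list of 30 that added further ligands and receptors, binding-protein proteases and their inhibitors, receptor adaptors, growth hormone signalling and FOXO factors. In fibroblast-like cells 21 were measured, of which 4 were higher in the SBM library (9.48% of all genes) and 2 lower (10.5%). Pappa, the protease that cuts IGFBP4, had 67.3 CPM in the SBM and 29.5 CPM in the IMQ library (1.18, 0.90 to 1.48). Stc1, whose product stanniocalcin inhibits that protease, had 71.4 and 30.6 CPM (1.22, 0.94 to 1.51). Htra1, a serine protease that cuts IGFBP5, had 687 and 436 CPM (0.66, 0.58 to 0.74).

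In dermal papilla-like cells 17 of the 30 were measured, with 4 higher (31.7% of all genes) and 7 lower (13.5%). Both stanniocalcin genes were lower with Shi-Bi-Man. Stc1 had 7.23 CPM (5 counts) in the SBM and 121 CPM (45 counts) in the IMQ library, a log2 ratio of -3.94 (-5.75 to -2.74). Stc2 had 14.5 and 94.0 CPM (-2.65, -3.88 to -1.66), and Pappa2, a protease of IGFBP3 and IGFBP5, 117 and 295 CPM (-1.33, -1.77 to -0.91). Grb10, an adaptor that dampens the receptor, had 86.7 and 24.2 CPM (1.78, 0.82 to 3.04).

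In blood endothelial-like cells 16 were measured, with 4 higher (13.7% of all genes) and 4 lower (18.8%). The insulin receptor gene Insr had 166 CPM in the SBM and 72.5 CPM in the IMQ library (1.19, 0.71 to 1.67). In keratinocyte-like cells 8 of 21 were higher (14.4% of all genes) and 2 lower (12.1%), and those with the largest ratios were rare there, such as Pappa with 9.05 and 2.26 CPM. In the macrophage class, 4 of 14 were higher in the SBM library and none was lower (1.5-fold was exceeded by 13.6% of all genes upward and 11.9% downward). Ghr, the growth hormone receptor, had 21.3 and 6.67 CPM (1.67, 0.72 to 2.65). No count of Igf2 was found in either library, which allows up to 3 counts in each.

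The members' patterns over cell clusters were compared as log2(CPM + 1) in 46 sums, 1 per cluster and library. These sums share libraries and differ in depth, so the correlations only describe them. The closest pairs among the members were Igfbp5 with Igfbp7 (r = 0.68) and Igfbp5 with Igfbp6 (0.64), and the tail-to-tail neighbours Igfbp2 and Igfbp5 reached 0.20. Igfbp3 had no r above 0.34 with another member. Among 12083 genes, Igfbp7 was most like the basement membrane collagen gene Col4a1 (r = 0.94), Igfbp5 most like the complement inhibitor gene Serping1 (0.88), Igf1 most like Cd302 (0.88) and Igfbp6 most like Spon2 (0.85). The best matches were weaker for Igf1r (Smg6, 0.78), Igfbp4 (Tns1, 0.69), Igfbp3 (Dio2, 0.64) and Igfbp2 (Fto, 0.62).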

How the data were processed

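Single-cell 3′ RNA sequencing was done on 1 library per group. The deposited values are whole-number counts, 1 per gene and barcode, and no barcode holds under 500. The submitters' processing notes name the builds mm10 and GRCm38. The aligner, the counting program, its use of strand, the cell-calling rule and whether molecules were collapsed are not given in the sources used here.

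Barcodes with fewer than 200 genes or over 20% mitochondrial counts were dropped, which removed 7 and 101 SBM barcodes, and 192 and 105 IMQ barcodes. Scrublet, at an assumed rate of 0.08, called 83 of 7946 SBM cells (1.04%), which were left out, and 0 of 11019 IMQ cells, so it did not work there. An alternative left out the 8% with the highest scores in each library. Counts scaled to 10000 per cell were clustered in scanpy 1.11.5 (2000 variable genes without the IGF list, 30 components, 15 neighbours, Leiden resolution 1). A class needed 3 supported markers, each at least 2-fold higher than in other cells and found in 10% of the cluster. Ratios had 0.5 added to each count. Classes needed 100 cells per library to be compared and clusters 50. Ratio intervals were run on simulated Poisson counts, the model they assume. This checks the calculation and says nothing of the spread between cells or libraries. Alternatives used TMM (edgeR 4.0.16) and DESeq2 1.42.0 scaling. No test was run between single libraries.

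The members, lists, markers and rules were chosen with earlier results of these data known. Named genes are all members, the 3 pathway genes with the largest ratios and the 3 with the highest levels per class, the 3 most alike genes per member and the 3 leading genes per cluster, given in part here. Marker genes of the papilla were named after their values were seen.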

Additional observations from a re-analysis of the deposited data

Results flagged for a closer look

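The classes of fibroblast-like, dermal papilla-like, blood endothelial-like and keratinocyte-like cells were compared with each other, and so were the 4 fibroblast clusters. Within these comparisons, 5 members were past 1.5-fold in opposite directions, and the 2 most distant values of each are given. Each difference between classes was not tested, because there was 1 library per group. Igfbp3 had log2 ratios of -4.457 in dermal papilla-like cells and 1.234 in keratinocyte-like cells. Igfbp4 had 1.722 in dermal papilla-like cells and -0.8775 in fibroblast-like cells. Igfbp2 had 3.184 in fibroblast-like cells and -0.9876 in keratinocyte-like cells. Igf1r had 0.784 in blood endothelial-like cells and -1.037 in dermal papilla-like cells. Igfbp5 had 0.7465 in the Sema3a, Magi2 and Meg3 fibroblast cluster and -0.8345 in the Coch, Kera and Fmod cluster. Of the class values, those of Igfbp3 in keratinocyte-like cells and of Igfbp4 in fibroblast-like cells were 0.1955 and -0.1298 at the IMQ mix of clusters, short of 1.5-fold. The keratinocyte value takes the SBM level of the Krt6b cluster from 24 cells.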

How the results depend on the processing

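In dermal papilla-like cells, the counts of members past 1.5-fold (3 higher, 4 lower) stayed within 1.5 times under all alternatives run, and the log2 ratio of Igfbp3 ranged from -4.64 to -4.33 and that of Igfbp4 from 1.54 to 1.78. The members behind the counts could change. For means over cells Igfbp5 fell to 0.43, short of 1.5-fold, and Igfbp2 rose to 0.66, past it. TMM scaling shifted all papilla ratios by -0.18. In fibroblast-like cells, the 2 higher members became 1 at the IMQ mix of clusters, with the highest 8% of Scrublet scores left out and at a fold of 2; the 3 lower members became 0 at the IMQ mix and 1 at a fold of 2. In blood endothelial-like cells, the 2 higher members became 4 without the highest Scrublet scores and 1 at a fold of 2, and the 2 lower became 1 with doublets kept or with 20 components and 0 at a fold of 2. In keratinocyte-like cells, the 3 higher members became 1 for means over cells and at the IMQ mix. That mix takes the SBM level of the Krt6b cluster from 24 cells. The 1 lower member became 2 for means over cells, without the highest Scrublet scores and with 20 components. It became 0 at a fold of 2. The ratio of Igfbp6 in fibroblast-like cells turned to 0.17 at the IMQ mix. In sebaceous gland-like cells, Igfbp3 (28.6 and 18.8 CPM, log2 ratio 0.61) turned to -0.48 for means over cells and to -0.0651 without the highest Scrublet scores. The cause was not tested. The IMQ mix holds cluster sizes equal by construction, and it weights clusters by cell numbers instead of summed counts. The IMQ mix gave no value for classes of 1 cluster. No paired analysis was possible because each group has 1 library. Low counts limit Igfbp5 in dermal papilla-like cells, which rested on 39 and 8 counts and ranged from 0.43 to 2.45. Ranges were wider where 5% of the all-cell profile was subtracted from low levels: Igf1 in keratinocyte-like cells ranged from 0.53 to 5.91, and in sebaceous gland-like cells Igfbp5 from 0.997 to 5.30 and Igfbp7 from -0.17 to 3.14.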
